A study of Mus musculus with 12 samples.

Results

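Histone genes were taken as the protein-coding genes of the deposited P3 table whose symbol marks a member of the H1, H2A, H2B, H3 or H4 families, which gave 73 of 31091 genes. They were split into 59 clustered replication-dependent genes (H1f1 to H1f5 and the H2ac, H2bc, H3c and H4c genes), 7 replacement variants (H1f0, H2ax, H2az1, H2az2, H3f3a, H3f3b and H3f4) and 7 other variants (H1f6, H1f8, H1f9, H1f10, H2aj, H2al1m and H2bw2). The rule used symbol and biotype and no measured value. RNA was sequenced from granule cell progenitors, which divide in the young cerebellum and give rise to its granule neurons, of WT mice (control) and of Znhit3 conditional knockout mice (cKO) at postnatal day 3, with 3 libraries per group. The labels give neither the Cre line, the strain nor the number of animals behind a library, and the 6 P6 samples were not analysed here. Whether the libraries of a group came from separate animals is not given, so the p-values rest on a spread between samples that may be technical.

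Histones are the proteins around which DNA is wound into nucleosomes. Replication-dependent histone genes lie in clusters, are transcribed in S phase and make mRNAs that end in a conserved stem-loop in place of a poly(A) tail. The stem-loop is bound by the protein SLBP, and the end is cut with the help of the U7 small nuclear ribonucleoprotein. Replacement variants are made outside S phase as well, from ordinary spliced or single-exon genes with polyadenylated mRNAs, and are deposited in place of the replication-dependent forms. RNA was selected here by its poly(A) tail, so the reads of a replication-dependent gene come from whatever part of its RNA was kept by that selection and are no measure of its total mRNA. Between libraries of whole cell preparations, fewer cells of a type and less RNA per cell cannot be told apart.

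The stem-loop belongs to the replication-dependent kind of 3′ end, and its letters can be searched for in annotated transcripts. The histone stem-loop pattern, 16 bases of which positions 3, 4, 7, 10 and 13 may be any base, was searched on the sense strand of the annotated transcripts (GENCODE M21, GRCm38), and 41 of the 73 members held it, against 83 of 55450 annotated genes (0.15%). It was present in 38 of the 59 clustered genes, in 1 of the 7 replacement variants (H2ax) and in 2 of the 7 other variants (H1f6 and H2bw2). A transcript model that stops short of the stem-loop cannot show it, so a missing match says only that these letters are not in the annotated sequence. A match does not show that the RNA ends there. The most frequent form, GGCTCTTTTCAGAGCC, gives the fixed letters of the pattern and was held by 24 members. The sites of H2ax and of members with differing levels or forms are shown here 5′ to 3′ in lower case with the 16 bases of the stem-loop in capitals, and the GRCm38 positions are those of the capitals.
H2ax (chr9:44335240-44335255, plus strand): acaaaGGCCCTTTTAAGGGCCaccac
H2bc27 (chr11:58949349-58949364, plus strand): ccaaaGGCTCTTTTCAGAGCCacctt
H2ac24 (chr13:21833029-21833044, minus strand): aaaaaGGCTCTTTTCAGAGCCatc
H2bc11 (chr13:22043638-22043653, plus strand): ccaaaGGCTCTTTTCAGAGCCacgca
H2ac25 (chr11:58955172-58955187, plus strand): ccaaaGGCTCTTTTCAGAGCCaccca
H4c9 (chr13:22040966-22040981, minus strand): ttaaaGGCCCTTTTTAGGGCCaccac
H3c3 (chr13:23745047-23745062, minus strand): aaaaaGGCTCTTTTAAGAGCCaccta

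Annotated transcripts differed in how far they run past this site. The model of H2ac24 ended 3 bases after the stem-loop and that of H2bc11 ended 23 bases after it. The models of H2bc27, H2ac25, H1f2 and H2ax continued for 169, 1643, 840 and 822 bases.

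The sequence before the start of each gene was compared in the RefSeq promoter table (GRCm38.p6), which matched 67 of the 73 members by Entrez gene ID (H2bc27 is listed there as H2bu2). No entry matched H2ax, H2bc4, H2bc21, H3c1, H3c7 or H4c14. The 250 bases before the start were searched on both strands for the CCAAT box, for the TATA box written as TATAAA and for the octamer ATTTGCAT, where matches of a motif may overlap those of another. CCAAT was found in 81.5% of 54 clustered genes with an entry and in 34.5% of 27025 promoters of all genes. It was present in all 29 clustered H2A and H2B genes with an entry and in 60.0% of the 25 other clustered genes. TATAAA was found in 50.0% of the clustered genes against 13% of all promoters. These matches were counted at any position of the window and on either strand, so a match need not be a TATA box. In H4c6 and H4c9, for example, the match lay far from the start, and in H2bc22 it was on the other strand only. The octamer was found in 34.5% of the clustered H2A and H2B genes, in none of the other 25 clustered genes, and in 1.61% of all promoters. Of the 6 replacement variants with an entry, 5 held CCAAT (83.3%), 1 held TATAAA and 1 held the octamer. The CCAAT share is thus not particular to the clustered genes. Genes that lie back to back, such as H2ac11 and H2bc11, have windows that cover much the same DNA, so the same site can count for both. The windows of H2bc23 and H2bc24 hold the same letters. The shares among clustered genes are therefore not over independent promoters. A match is a description of the letters and not of binding. The windows of 4 genes that were lower in cKO are shown with the matches in capitals, as members of both classes with and without these motifs.
H2bc27 (chr11:58948661-58948910, plus strand): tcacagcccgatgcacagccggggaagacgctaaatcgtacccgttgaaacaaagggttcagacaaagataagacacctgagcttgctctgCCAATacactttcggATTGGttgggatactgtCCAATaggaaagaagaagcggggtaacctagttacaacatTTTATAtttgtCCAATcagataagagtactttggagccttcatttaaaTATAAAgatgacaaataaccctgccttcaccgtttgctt
H2bc11 (chr13:22042948-22043197, plus strand): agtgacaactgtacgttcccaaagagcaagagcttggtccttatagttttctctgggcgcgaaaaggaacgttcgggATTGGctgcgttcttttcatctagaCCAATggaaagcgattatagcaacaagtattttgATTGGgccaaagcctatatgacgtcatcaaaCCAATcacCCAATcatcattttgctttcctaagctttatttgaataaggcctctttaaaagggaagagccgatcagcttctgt
H2az1 (chr3:137864237-137864486, plus strand): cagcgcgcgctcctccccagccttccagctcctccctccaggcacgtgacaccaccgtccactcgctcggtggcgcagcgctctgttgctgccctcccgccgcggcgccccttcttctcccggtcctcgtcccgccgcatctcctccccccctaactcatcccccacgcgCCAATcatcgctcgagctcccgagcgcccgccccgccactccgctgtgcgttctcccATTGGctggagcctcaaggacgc
H1f0 (chr15:79027962-79028211, plus strand): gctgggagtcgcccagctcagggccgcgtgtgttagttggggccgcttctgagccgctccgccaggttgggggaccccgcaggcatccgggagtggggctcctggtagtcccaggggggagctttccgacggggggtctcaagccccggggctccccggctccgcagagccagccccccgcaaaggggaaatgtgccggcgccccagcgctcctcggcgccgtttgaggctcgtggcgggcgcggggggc

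The H2bc27 window held 4 CCAAT matches on both strands together and also TATAAA. The H2bc11 window held 5 CCAAT matches, the H2az1 window held 2, and the H1f0 window held none of the 3 motifs.

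The deposited values are FPKM, reads scaled to gene length and library size, and they correspond to between 29119803 and 52961445 counted reads per library. At these depths 3 reads in a gene of 1 kb correspond to between 0.057 and 0.10 FPKM, a limit that covers counting error only. Each difference given here is the cKO mean less the control mean of log2(FPKM + 1), a scale on which low genes appear to change less than they do. Calls are those of limma with Benjamini-Hochberg adjusted p-values under 0.05, over the 13538 genes whose mean reached 1 FPKM. Znhit3 itself, a gene for an assembly factor of small nucleolar ribonucleoproteins, measured 9.15, 8.62 and 8.58 FPKM in control and 4.03, 4.01 and 4.57 FPKM in cKO. It fell by 0.91 on the log2 scale (adjusted p of 0.00024), and an exact permutation test, two-sided, gave 0.1, the smallest p that 3 against 3 samples allow. Granule progenitor genes were present in each library, with Atoh1, the transcription factor gene that specifies these cells, between 32.8 and 41.3 FPKM.

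Of the 73 members 28 passed the filter on low values, 6 replacement variants, 2 other variants and 20 clustered genes. Of these 28 genes 7 were lower in cKO and none was higher, where 5.74% of all tested genes were called lower and 13.4% were called higher. The 7 were the replacement variants H1f0, H2az1 and H2az2 and the clustered genes H2bc27, H2bc11, H2ac25 and H2ac24. At an unadjusted p under 0.05 the count was 11, all lower in cKO, where 12% of all tested genes were lower at that limit. The median difference of the 28 was -0.20, against 0.03 over all tested genes, and 25 of them lay below 0, which 42.1% of all tested genes did. In 11 of the 28 the 3 cKO values lay below the 3 control values, as in 13.2% of all tested genes, and in none did they lie above, as in 27.3% of all tested genes. The count of 7 was 4 when control replicate 2 was left out, and it was 3 when genes of any level were tested. Histone genes are short, with a median length of 706 bases over the 73 against 4219 over all tested genes. With a gene length trend removed the count was 6, where 1168 of all 13538 tested genes were called lower, against 777 without that removal.

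**Figure D1:**
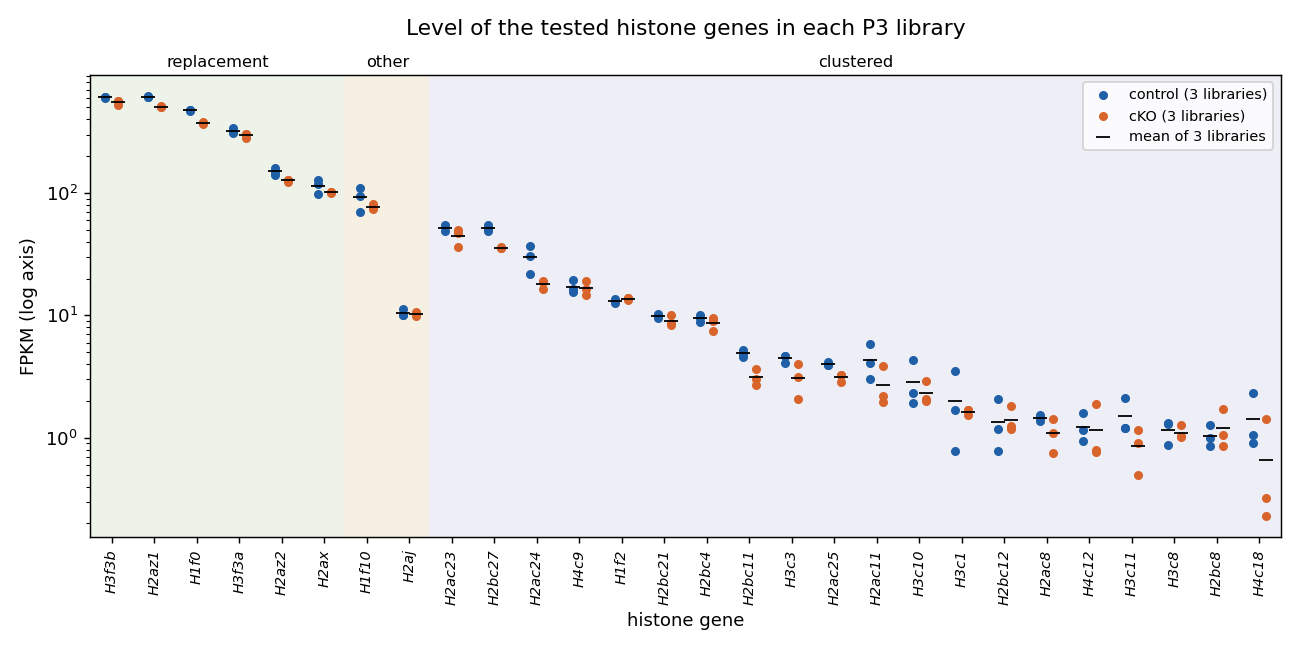
FPKM on a log axis for the 28 tested histone genes, in the order of their class and mean, with 1 point per library for control (blue) and cKO (orange) and a bar at each mean. Replacement variants lie at 98.4 FPKM or above in every library, and most clustered genes lie below 20 FPKM.

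The 6 tested replacement variants were the most abundant histone transcripts of these poly(A) libraries. H1f0, the linker histone gene associated with slowly cycling and differentiating cells, measured 476, 480 and 470 FPKM in control and 383, 367 and 372 FPKM in cKO. All cKO libraries lay well below all control libraries. The mean fell from 475 ± 4.9 to 374 ± 8.2 FPKM (SD, n = 3), to 78.7% of control, by -0.34 ± 0.05 (SE) on the log2 scale (adjusted p of 0.0027). With quantile normalization the difference was -0.22 and the gene stayed called. H1f0 lies on chromosome 15 at 78912650 to 78914704 in the positions of the deposited table, whose build is not stated in it. The deposited positions differ from the GRCm38 positions given with the sequences, although the submitters' processing notes name mm10.

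The H2A.Z genes H2az1 and H2az2 encode a pair of near-identical variants found at promoters and other regulatory nucleosomes. H2az1 measured 606, 622 and 614 FPKM in control and 511, 503 and 504 FPKM in cKO, so the groups did not overlap. Its mean fell to 82.4% of control, by -0.28 ± 0.05 (SE) on the log2 scale (adjusted p of 0.0064). H2az2 was lower in level, with 139, 150 and 161 FPKM in control and 127, 124 and 128 FPKM in cKO. Its lowest control library was above its highest cKO library, and the mean fell to 84.5% of control with an adjusted p of 0.025. The call of H2az2 was lost in 6 of 19 alternative analyses, with adjusted p-values up to 0.105, among them quantile normalization (difference -0.15) and the omission of control replicates 2 or 3 or of cKO replicates 2 or 3.

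The H3.3 genes H3f3b and H3f3a encode the H3 form that is deposited independently of replication. H3f3b measured 607, 596 and 611 FPKM in control and 528, 560 and 569 FPKM in cKO. H3f3a measured 308, 314 and 342 FPKM in control and 282, 301 and 303 FPKM in cKO. In both genes the groups did not overlap, but the gap was small, and neither was called, with differences of -0.13 ± 0.05 and -0.12 ± 0.06 (SE) and adjusted p-values of 0.11 and 0.18. H3f3b was called with voom on the recovered reads (adjusted p of 0.023), its difference was -0.03 with quantile normalization, and the sign of H3f3a turned to 0.048 with quantile normalization. Reads of H3f3a can be shared with its processed pseudogenes, of which H3f3a-ps1 measured 12.7 ± 2.9 FPKM in control and 12.1 ± 5.8 FPKM in cKO (SD, n = 3). H3f4 was placed among the replacement variants by its symbol alone. It lies on chromosome 11 at 58852599 to 58853364 in the deposited positions, near the clustered gene H2ac25. H3f4 had a mean of 0.23 FPKM over the 6 libraries and was not tested.

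H2ax encodes the H2A form that is phosphorylated at DNA breaks, and it was the replacement gene with the stem-loop. It measured 98.4, 119 and 127 FPKM in control and 102, 103 and 99.8 FPKM in cKO. The lowest value of all 6 was that of control replicate 1, and the groups overlapped. The gene was not called, with a difference of -0.17 ± 0.09 (SE) and an adjusted p of 0.20. The value depended on single control libraries: it was -0.28 (adjusted p of 0.016) without control replicate 1 and -0.09 (adjusted p of 0.46) without control replicate 3. The same library was the lowest for H1f10, a linker variant gene of the other class, which measured 69.6, 95.4 and 111 FPKM in control and 81.4, 76.1 and 74.4 FPKM in cKO with an adjusted p of 0.31. H1f10 moved likewise, from -0.22 to -0.41 (adjusted p of 0.018) without control replicate 1 and to -0.08 (adjusted p of 0.71) without control replicate 3. H2aj, an H2A variant gene, measured 10.5 ± 0.72 and 10.2 ± 0.38 FPKM (SD, n = 3) with an adjusted p of 0.70.

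**Figure D2:**
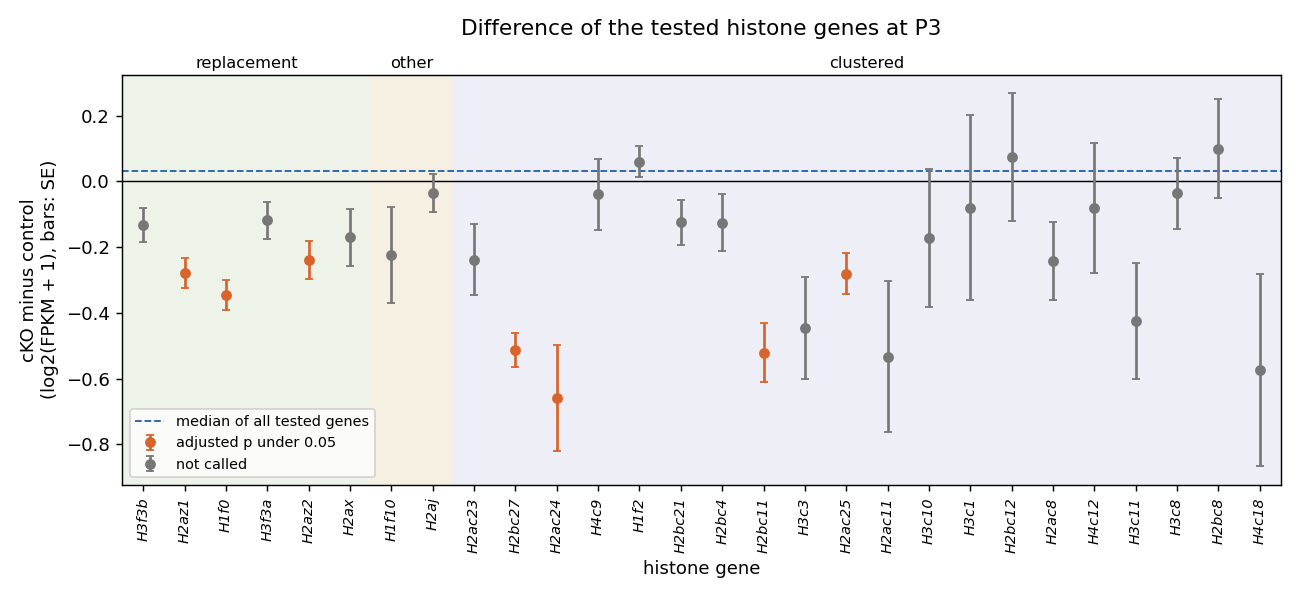
Difference between cKO and control on the log2(FPKM + 1) scale for the 28 tested histone genes, with bars of 1 SE, orange for an adjusted p under 0.05 and grey otherwise. The 7 called genes lie between -0.24 and -0.66, and the dashed line at 0.03 is the median of all tested genes.

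Most clustered genes were low here, with a median of 0.55 FPKM or 14.3 reads per library over the 59, and 36 had fewer than 20 reads per library. Of 59 members 51 lay on chromosome 13, between 21899933 and 23948389 in the deposited positions, 5 on chromosome 3, 2 on chromosome 11 and 1 on chromosome 6. The 3 most abundant, H2ac23, H2bc27 and H2ac24, made up 55.9% of the summed FPKM of the class. Tested members by family were 1 of 5 H1, 5 of 15 H2A, 6 of 16 H2B, 5 of 10 H3 and 3 of 13 H4 genes. The genes called lower were 2 of the H2A and 2 of the H2B genes.

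H2bc27 is an H2B gene of the small cluster on chromosome 11 (58839746 to 58840359 in the deposited table). It measured 48.6, 55.1 and 50.4 FPKM in control and 35.5, 35.4 and 36.0 FPKM in cKO. The cKO libraries were close together and all below the controls. The mean fell from 51.4 ± 3.3 to 35.6 ± 0.29 FPKM (SD, n = 3), to 69.4% of control, by -0.51 ± 0.05 (SE) on the log2 scale (adjusted p of 0.0011). This was the smallest adjusted p of the 28 genes, and the gene stayed called in all 19 alternative analyses. Of its 100-base windows 4.85% occur in a transcript of another gene.

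H2ac25, an H2A gene of the same cluster (58845511 to 58847656), measured 3.94, 4.17 and 3.96 FPKM in control and 2.86, 3.27 and 3.28 FPKM in cKO. The groups did not overlap, and the mean fell to 78.0% of control with a difference of -0.28 ± 0.06 (SE) and an adjusted p of 0.020. It was not called without control replicate 2 (adjusted p of 0.068) or control replicate 3 (0.054). Each library held between 205 and 450 reads of it.

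H2bc11, an H2B gene on chromosome 13 (22227384 to 22227846), measured 5.25, 4.55 and 4.85 FPKM in control and 3.63, 2.68 and 3.04 FPKM in cKO. Every cKO value was below every control value. The mean fell to 63.8% of control, a difference of -0.52 ± 0.09 (SE) (adjusted p of 0.0079), on 41 to 119 reads per library. In the authors' deposited table H2bc11 was not called, with a log2 fold change of -0.70 and an adjusted p of 0.061.

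H2ac24, an H2A gene on chromosome 13 (22017196 to 22017677), had the largest fall among the called histone genes. It measured 36.8, 30.7 and 21.9 FPKM in control and 18.9, 19.3 and 16.3 FPKM in cKO. The control libraries were widely spread, although all lay above the cKO libraries. The mean fell to 61.0% of control, a difference of -0.66 ± 0.16 (SE) (adjusted p of 0.028), and the call was lost in 8 of 19 alternative analyses with adjusted p-values up to 0.11. These included removal of a gene length trend and the omission of each library in turn, with control replicate 3 as the exception. H2ac24 shares 92.2% of its 100-base windows with other genes, so its reads cannot be told from those of near-identical copies such as H2ac23 with certainty.

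H2ac23 itself measured 48.6, 53.4 and 54.3 FPKM in control and 36.3, 49.4 and 47.3 FPKM in cKO. The groups overlapped, the adjusted p was 0.16, and 92.7% of its windows occur elsewhere. Among the other H2A and H2B genes, H2ac11 measured 5.87, 4.09 and 3.04 FPKM in control and 1.98, 2.2 and 3.89 FPKM in cKO with an adjusted p of 0.14. H2bc21 measured 9.93 ± 0.37 and 9.05 ± 0.93 FPKM and H2bc4 9.46 ± 0.63 and 8.62 ± 1.1 FPKM (SD, n = 3), with adjusted p-values of 0.24 and 0.34. H2ac8, H2bc8 and H2bc12 had means between 1.04 and 1.45 FPKM in control and were not called.

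The H3 gene with the highest level in the clusters, H3c3, measured 4.05, 4.67 and 4.65 FPKM in control and 3.98, 2.09 and 3.16 FPKM in cKO. Its groups did not overlap by a narrow gap, and it was not called, with a difference of -0.45 ± 0.16 (SE) and an adjusted p of 0.079. It was called with array weights and among protein-coding genes only. It was also called without cKO replicate 1 (-0.60, adjusted p of 0.025), while without cKO replicate 2 the difference was -0.26 (adjusted p of 0.13). The other tested H3 genes, H3c1, H3c8, H3c10 and H3c11, had control means between 1.16 and 2.85 FPKM and adjusted p-values between 0.13 and 0.86. Of these, H3c11 did not overlap between the groups, with 1.20, 2.11 and 1.19 FPKM in control and 1.17, 0.91 and 0.50 FPKM in cKO on 6 to 28 reads. The H4 gene H4c9 measured 16.4, 19.6 and 15.6 FPKM in control and 16.3, 14.6 and 19.3 FPKM in cKO, so the groups overlapped, with an adjusted p of 0.82. H4c12 and H4c18, at the lower edge of the filter, were not called. The H4c18 difference ran from -0.88 without cKO replicate 1, where it was called (adjusted p of 0.043), to -0.33 without control replicate 2 (adjusted p of 0.48).

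H1f2, the one linker gene of the clusters that passed the filter, was not lower in cKO. It measured 13.1, 13.7 and 12.6 FPKM in control and 13.3, 13.9 and 13.9 FPKM in cKO, a difference of 0.06 ± 0.05 (SE) (adjusted p of 0.39). The gene holds the stem-loop and has between 630 and 1037 reads per library. H1f2, H2bc8 and H2bc12 were the 3 tested members with a difference above 0.

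Across the 20 tested clustered genes the differences ran from -0.66 to 0.10 with a median of -0.21. The 14 with a stem-loop match had a median of -0.26 and included all 4 called clustered genes. The 6 without a match had a median of -0.12 and none called, where 5.74% of all tested genes were called lower. A missing match need not mean a missing stem-loop, as H3c10, H3c11 and H4c12 have lengths of only 411, 411 and 312 bases. Among the 14, the 6 whose transcript model runs over 100 bases past the stem-loop had a median of -0.14, and the 8 with shorter ends had a median of -0.48, with 2 genes called in each set. These medians and counts of calls were not tested against each other, and sets this small cannot show a contrast in calls. Of the 6 replacement variants tested 3 were called lower, with a median of -0.20, and the classes were not tested against each other. With quantile normalization the medians were -0.22 for clustered genes and -0.12 for replacement variants.

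The levels of each class were also summed over all members, tested or not. Clustered genes summed to 232, 243 and 221 FPKM in control and 175, 184 and 187 FPKM in cKO. All cKO sums lay below all control sums, and the mean was 78.5% of control (232 ± 11 and 182 ± 6.3 FPKM, SD, n = 3). Much of this sum is H2ac23, H2bc27 and H2ac24, with means of 52.1, 51.4 and 29.8 FPKM in control. In cKO these genes had means of 44.4, 35.6 and 18.2 FPKM, so the sum does not describe each gene of the class. Replacement variants summed to 2235, 2281 and 2324 FPKM in control and 1934, 1958 and 1977 FPKM in cKO, 85.8% of control. The other variants overlapped, with 79.8, 107 and 121 FPKM in control and 92.1, 86.0 and 84.5 FPKM in cKO. As a share of all counted reads, the 73 genes took between 0.558% and 0.583% in control libraries and between 0.486% and 0.503% in cKO libraries, and clustered genes took between 0.0171% and 0.0183% and between 0.0142% and 0.0153%. The Wilson 95% interval of the clustered share was 0.0173% to 0.0181% in control replicate 1 and 0.0138% to 0.0146% in cKO replicate 1, for counting error only.

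**Figure D3:**
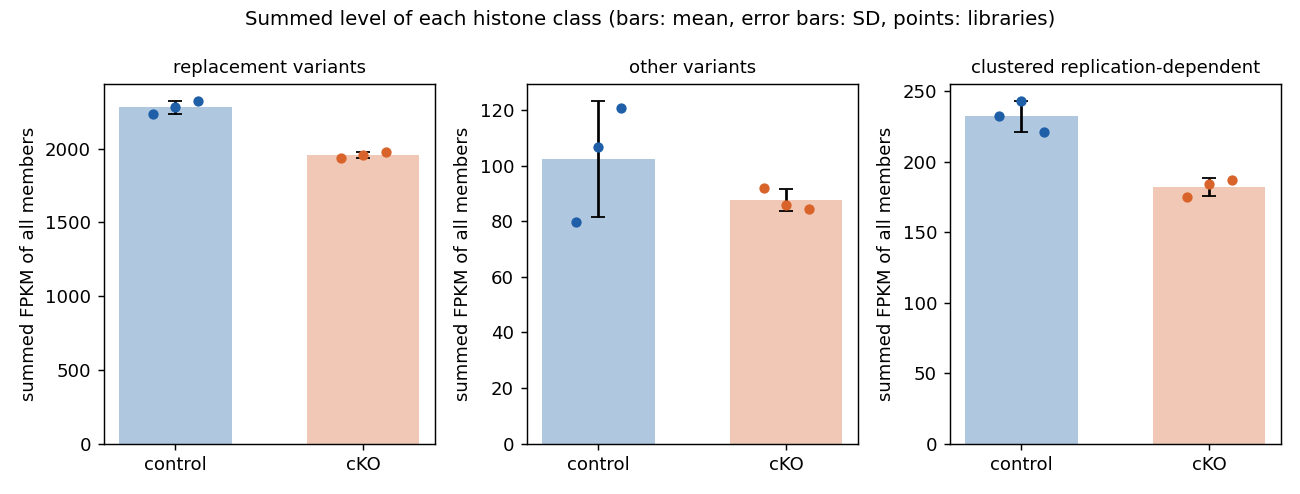
Summed FPKM of all members of each histone class on axes that start at 0, as bars for the mean of 3 libraries, error bars for the SD and points for the libraries. The clustered and replacement sums of cKO lie below those of control in every library, and the sums of the other variants overlap.

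The 45 members under the filter had means between 0.015 and 0.99 FPKM with a median of 0.29, and 39 of them had fewer than 20 reads per library on average. At the edge of the filter, H4c18 was just inside with 1.04 FPKM and H2ac13 just outside with 0.99 FPKM. The mean was lower in cKO in 29 of the 45 and higher in 16, and 13 had no read in at least 1 library. In 4 of the 45 every cKO value lay below every control value, and in 1 every cKO value lay above. The same shares over all genes under the filter were not computed, so these counts are no result about the members. Among the 6 with at least 20 reads, H4c4 measured 1.25, 0.57 and 0.85 FPKM in control and 0.19, 0.48 and 0.12 FPKM in cKO. H2bc6 went the other way, with 0.15, 0.21 and 0.14 FPKM in control and 0.34, 0.34 and 0.22 FPKM in cKO. In these 2 genes the groups did not overlap. The authors' deposited table gave them log2 fold changes of -1.79 and 0.79 with adjusted p-values of 1 and 0.14, and no member below the filter was called when genes of any level were tested. H1f3, H1f4, H1f5 and H2ac6 overlapped between the groups, with control means of 0.15, 0.58, 1.02 and 0.21 FPKM.

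Many H2A and H2B genes sit back to back and are transcribed away from each other. In the deposited positions 12 pairs of members faced apart with starts 176 to 660 bases apart, 11 of them an H2A and an H2B gene and 1 the pair of H2bc9 and H3c7. The genes of 4 pairs differed by over 10-fold in mean level. H2ac23 measured 52.1 FPKM in control where its partner H2bc23 measured 0.048 FPKM, and H2ac24 measured 29.8 FPKM where H2bc24 measured 0.019 FPKM. Of the windows of H2bc23 and H2bc24, 94.8% and 86.4% occur in transcripts of other genes, and these genes averaged 5.33 and 2.67 reads per library. The assignment of reads that match several genes is not given, so the size of the gaps in these pairs is uncertain. H2bc21 and H2bc4 were the higher partners of H2ac20 and H2ac6, which measured 0.30 and 0.21 FPKM in control. The pair of H2ac11 and H2bc11 was alike in level, with 4.33 and 4.88 FPKM in control and 2.69 and 3.12 FPKM in cKO, and in difference, with -0.53 and -0.52, although only H2bc11 was called. The H2ac11 difference moved with single libraries and was -0.33 without control replicate 1. H2ac8 and H2bc8, the other pair with both genes tested, had differences of -0.24 and 0.10, and neither was called. The use of strand in the authors' counting is not given in the sources used here, and overlapping transcripts cannot be told apart without it.

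**Figure D4:**
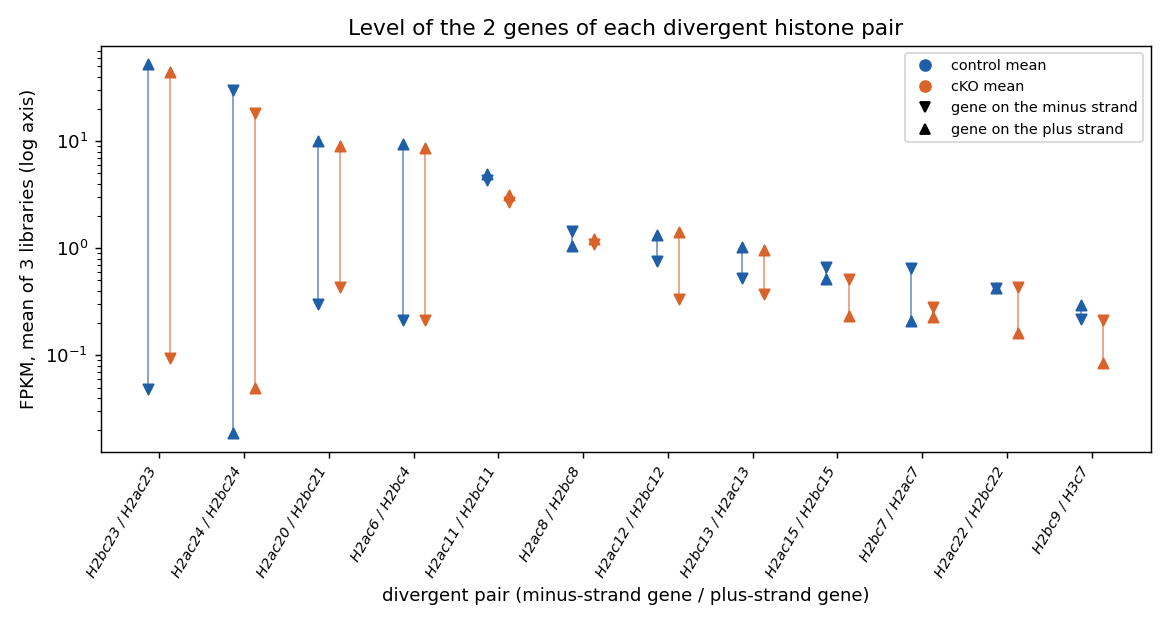
Mean FPKM of 3 libraries on a log axis for both genes of each of the 12 divergent histone pairs, with the minus-strand gene as a downward and the plus-strand gene as an upward triangle, blue for control and orange for cKO. The 4 pairs on the left span over 10-fold between partners, and the pair of H2ac11 and H2bc11 is close together in both groups.

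Sequence shared with other genes limits what can be said of single clustered genes. A window was counted as shared if it occurs on either strand of another gene's transcript. Genes that overlap in the genome, such as H2bc6 and H1f4, were not excluded, so a share need not come from copies. Of the 59 clustered genes only 5 shared no 100-base window with a transcript of another gene, and the median share was 34.3%. Among tested members the share was 0 for H2bc21 and H2az2 and 1.92% for H3f3b, against 92.0% for H3c10 and 80.7% for H4c18. Of the other genes called lower, it was 92.2% for H2ac24, 40.1% for H2bc11 and 29.8% for H2ac25. It was 25.7% for H2az1, 4.85% for H2bc27 and 3.27% for H1f0. H3f3a, which was not called, had 20.8%, so the limit also touches replacement variants. How the authors assigned reads that match several genes is not given in the sources used here.

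The authors' deposited table, a comparison of the same libraries, called 10 of the 28 lower and none higher, where it called 13.4% of the same tested genes lower. Its calls were all 6 tested replacement variants, H2bc27, H2ac24, H2ac25 and H2ac23. For H1f0, H2az1 and H2az2 the authors' deposited table gave log2 fold changes of -0.40, -0.33 and -0.30, and for H3f3b, H3f3a and H2ax it gave -0.19, -0.17 and -0.23. The values of H2bc27 and H2ac24 in the authors' deposited table were -0.58 and -0.76.

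Most genes that make or handle histone mRNA were not called. Of 20 tested genes of histone transcription and 3′ end processing, 3 rose and 2 fell, with a median of 0.02, where 13.4% of all tested genes rose and 5.74% fell. Npat, the co-activator of histone gene transcription that marks the histone locus body, measured 8.13, 7.70 and 7.33 FPKM in control and 9.55, 9.27 and 9.27 FPKM in cKO. All cKO values were above all control values, and it rose by 0.25 ± 0.05 (SE) with an adjusted p of 0.013. Casp8ap2, which encodes FLASH, a further component of that body, rose from 7.92 to 9.85 FPKM (adjusted p of 0.021). Snrpe, an Sm protein gene, fell from 80.1 to 65.6 FPKM (adjusted p of 0.018). The remaining calls of that list were Upf1, which rose, and Srrt, which fell. Slbp, the gene of the stem-loop binding protein, measured 17.8, 18.0 and 16.8 FPKM in control and 16.6, 17.4 and 19.0 FPKM in cKO with an adjusted p of 0.94. The U7-specific genes Lsm10 and Lsm11 had adjusted p-values of 0.21 and 0.065.

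Histone chaperones, which carry histones to and from DNA, were mostly not called: of 32 genes 1 rose and 2 fell, with a median of -0.03, where 13.4% of all tested genes rose and 5.74% fell. Spty2d1, a chaperone gene for H3 and H4, rose from 3.17 to 3.88 FPKM. Hjurp, the chaperone of the centromeric H3 variant, fell from 33.4 to 29.7 FPKM, and Yeats4, a subunit gene of the complexes that place H2A.Z, fell from 71.6 to 62.9 FPKM, with adjusted p-values of 0.024, 0.049 and 0.038 in this order. Chaf1a and Chaf1b of the replication-coupled assembly factor had differences of 0.0058 and -0.03, and Hira, the H3.3 chaperone gene, had -0.04. Anp32e, which removes H2A.Z, measured 174 ± 2.7 and 168 ± 1.8 FPKM (SD, n = 3) with an adjusted p of 0.34. Of 3 histone variants that the symbol rule leaves out, Macroh2a1, Macroh2a2 and Cenpa, none was called, with differences of -0.11, -0.11 and -0.15 and adjusted p-values of 0.088, 0.15 and 0.10.

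Replication and S phase genes give the context for genes that are transcribed in S phase. Of 24 genes, 2 rose and 4 fell, against 13.4% and 5.74% of all tested genes, with a median of -0.02 against 0.03. E2f1 fell by 0.36 on the log2 scale, while E2f8 and Ccne2, the gene of a cyclin that acts at the start of S phase, rose by 0.28 and 0.40. Granule progenitor markers gave 1 rise and 4 falls among 16 genes, against the same 13.4% and 5.74%, with summed levels between 1322 and 1412 FPKM in control and between 1098 and 1159 FPKM in cKO. Their most abundant gene, Mfap4, fell from 327 ± 5.3 to 211 ± 5.9 FPKM (SD, n = 3).

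Markers of other cell types moved with genotype in the same libraries. Of the tested markers, 12 of 14 endothelial, 8 of 10 GABAergic interneuron, 11 of 16 glial and microglial and 4 of 5 erythroid genes rose, and 7 of 9 choroid plexus genes fell, where 13.4% of all tested genes rose and 5.74% fell. In the other direction, 1 gene of the endothelial list and 1 of the interneuron list fell, and 1 of the choroid plexus list rose. The most abundant gene of the choroid plexus list, Ttr, fell from 1370 ± 48 to 665 ± 44 FPKM, and that of the endothelial list, Cldn5, rose from 77.2 ± 5.8 to 138 ± 8.7 FPKM (SD, n = 3). Lhx1, the most abundant gene of the interneuron list, fell from 39.1 to 31.8 FPKM, against the direction of most of that list. The erythroid gene Hba-a1 rose from 690 to 910 FPKM, and the glial gene Fabp7 measured 533 and 503 FPKM and was not called. Their summed levels in control and cKO were 156 to 169 and 271 to 283 FPKM for endothelium, 99.2 to 110 and 136 to 148 FPKM for interneurons, 985 to 1018 and 1055 to 1095 FPKM for glia and microglia, 1211 to 1476 and 1656 to 1887 FPKM for erythroid cells, and 1399 to 1487 and 679 to 758 FPKM for choroid plexus. No marker of these lists was at 0 in all libraries. Their part in the histone differences was not tested.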

How the data were processed

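Poly(A) RNA of granule cell progenitors was sequenced in paired ends, per the labels' protocols. Per the submitters' processing notes, the tools were HISAT2 2.2.1, StringTie 2.1.6, cutadapt 1.9, edgeR and DESeq2 and the build mm10, without roles; no annotation, filter or strand setting is given there. The authors deposited 1 P3 table with FPKM per library, and per the file headers also gene lengths. The same deposited table holds the authors' own comparison, as a mean signal, log2 fold changes, a score and raw and adjusted p-values. The cKO columns carry a prefix absent from the labels and were taken as cKO because the others are named WT and no other P3 group is labelled. FPKM times length gave whole reads in 100% of values (within 2.44e-09 reads). Within each group the libraries differed by more than counting noise (chi-square per degree of freedom of 4.82 to 11.9), so none was counted as a duplicate.

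The fit used limma 3.58.1 (R 4.3.3) on log2(FPKM + 1), with the variance trend on and no covariate, over the genes whose mean reached 1 FPKM. Its recovery of known changes was checked on simulated data. Sums, shares and sequence searches were made in Python 3.11.15. Of the histone processing list 21 of 22 entries matched a symbol. Every histone gene over the filter is named, below it those with at least 20 reads per library on average and H2ac13 next to the filter, from each histone-related or S phase list up to 3 called genes with the smallest p or else the most abundant, from each marker list the most abundant, and the partners of divergent pairs; other genes were chosen after their values were seen. The members and gene lists were chosen with earlier results of these data known. Alternatives were a different pseudocount, different filters, scaling by upper quartile, quantiles or TPM, no trend, array weights, a replicate block, protein-coding genes only, removal of a length trend, voom on the recovered reads and leaving out each library.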

Additional observations from a re-analysis of the deposited data

How the results depend on the processing

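The count of 7 histone genes called lower lay between 4 and 8 when each library was left out in turn, was 3 with no filter on low values, and was within 1.5 times of 7 under the other alternatives; no histone gene was called higher in any of them. H2bc27, H1f0 and H2bc11 stayed called in every alternative in which they were tested, H2az1 lost its call with no filter on low values (adjusted p of 0.096), and none of the 7 changed sign. The medians ran from -0.29 to -0.12 for clustered genes and from -0.28 to -0.12 for replacement variants over 19 alternatives. Changes of sign were seen in 9 genes that were not called: H3f3a with quantile normalization (0.048), H2aj with TPM scaling (0.0025), H2bc12 with quantile normalization (-0.0018) and array weights (-0.011), H4c9 with removal of the length trend (0.017), H3c8 with array weights (0.012) and removal of the length trend (0.027), and H3c1 with voom (0.020). With each library left out in turn the differences ran from -0.35 to 0.082 for H3c10, -0.061 to 0.21 for H2bc8, -0.063 to 0.017 for H2aj, -0.31 to 0.040 for H4c12, -0.11 to 0.29 for H2bc12, -0.14 to 0.053 for H4c9, -0.13 to 0.018 for H3c8 and -0.40 to 0.26 for H3c1. The cause was not tested. Samples with the same replicate number did not deviate together (correlations across genes of -0.097 to 0.036), and a fit with the replicate number as a block called 7 histone genes lower, while calls over all genes were 1542 against 2590. Calls over all genes were also 1271 with no filter, 1207 without cKO replicate 2 and 1331 without control replicate 2. The share of all calls that were lower was largest after removal of the length trend (1098 higher and 1168 lower, against 1813 and 777), and the counts were 1083 and 823 with quantile normalization and 2448 and 549 with TPM scaling. Few reads limit most clustered genes, and the filter left 39 of the 59 out of the test.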
